A study of Drosophila melanogaster with 22 samples.

Results

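RluA-2 encodes a pseudouridine synthase, and the gene counts of heads that lack it were set here against those of control heads, using libraries from RNA treated with CMC. The comparison held 8 of the 22 libraries of the series, namely the CMC libraries of Exp 2: 4 from homozygous RluA-2del-FRT flies, in which the RluA-2 locus is deleted, and 4 from the isogenic w1118 control strain. All 17101 identifiers listed with the gene counts entered, many of them without a count, and the 10050 left by a filter on low counts were tested. Both genotypes were sampled as heads of virgin females aged 1 day, with 100 heads pooled per replicate, from flies reared at 25°C and 70% humidity in cycles of 12 h light and 12 h dark. Poly(A) RNA of each replicate was split into a CMC aliquot and a mock aliquot, so that the CMC and mock library of the same number and genotype came from the same RNA. The w1118 strain is named for a deletion in w, and whether the RluA-2del-FRT stock carries a copy of w is not given in the sources used here. A pool of heads is 1 sample, so p-values below measure the spread between pools, and in whole heads fewer cells of a type and less RNA per cell cannot be told apart.

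Pseudouridine is an isomer of uridine that synthases make within RNA after transcription. Enzymes of the RluA family recognise their targets without a guide RNA, whereas the dyskerin homologue Nop60B works in H/ACA ribonucleoprotein particles with a guide. CMC is a carbodiimide that leaves a bulky group on pseudouridine, and reverse transcriptase stops next to it, which is the signal that Psi-seq maps. A gene count takes each insert as 1 wherever it ended, so it is read here as the RNA level of the gene in the CMC aliquot. Whether modification also alters such counts was not tested.

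Each w1118 library held between 16118398 and 21125613 gene counts, and each RluA-2 library between 19503469 and 21412913, and the genotypes overlapped in the number of genes with at least 1 count. The 10 most counted genes took 13.3% to 13.9% of counts in w1118 and 14.5% to 15.3% in RluA-2, without overlap (two-sided exact permutation p = 0.0286, which is the lowest value possible with 4 libraries a side, 0.143 after adjustment over 5 library measures). Ribosomal RNA made up 53.0% of the inserts in w1118 replicate 3, and between 26.5% and 38.1% in the other 7 libraries. The first principal component held 65.6% of the variance of log2 gene counts and placed the 4 libraries of each genotype apart.

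The deleted gene was checked first. RluA-2 (2L:10477073-10482975, release 6 of the genome) had levels of 7.95, 8.65, 6.95 and 5.85 IPM in the controls, in the order of replicates 1 to 4, against 1.65, 1.51, 0.696 and 2.20 IPM in the deletion, where IPM counts the sequenced inserts that ended within the span of a gene per 1000000 inserts placed in any gene span. All RluA-2 libraries lay below all w1118 libraries (log2 fold change -2.26, SE 0.22, edgeR adjusted p = 2.2e-06). What remained was confined to the first 1000 bases of the gene in all but 2 of 108 inserts. Within those bases the w1118 libraries had 18, 23, 19 and 10 inserts and the RluA-2 libraries 26, 28, 12 and 40, which overlapped (exact permutation test, two-sided, p = 0.286). Beyond them the w1118 libraries had 107, 136, 80 and 92 inserts and the RluA-2 libraries 2, 0, 0 and 0 (exact permutation test, two-sided, p = 0.0286). The labels of all 8 libraries therefore matched the state of the locus downstream of its first 1000 bases.

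**Figure D1:**
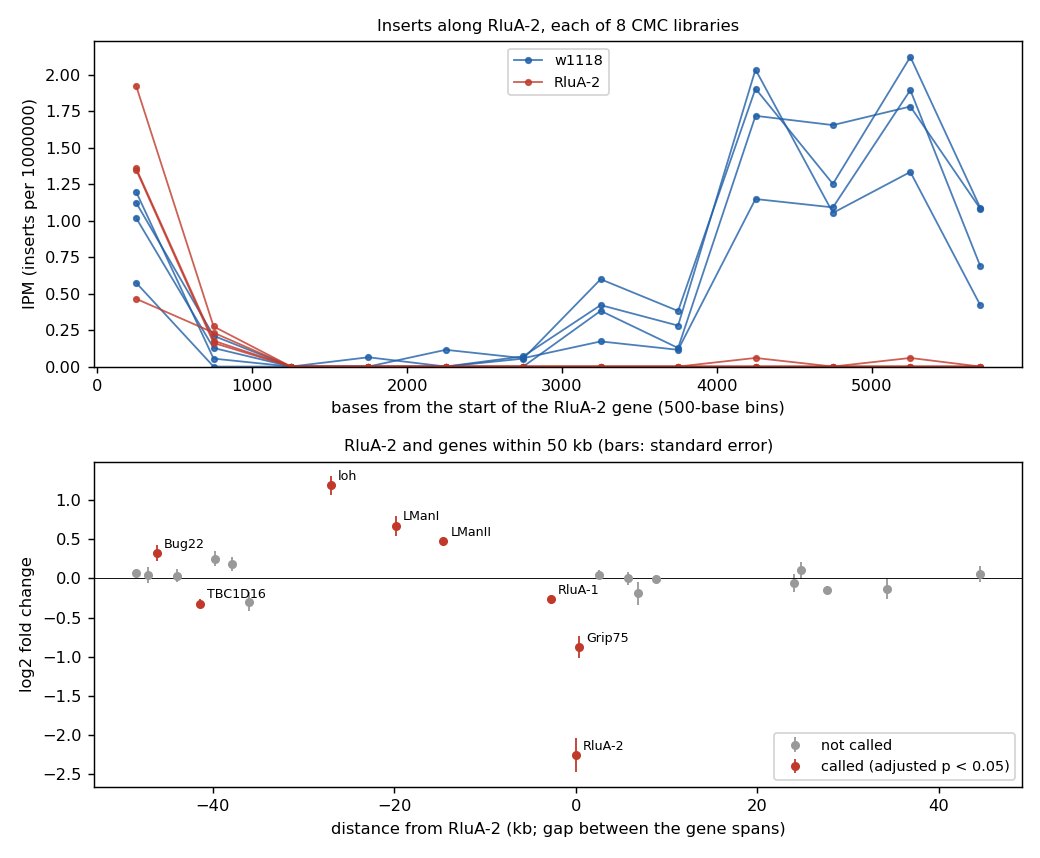
Upper panel: IPM along RluA-2 in bins of 500 bases, by distance from the start of the gene, 1 line for each of the 8 CMC libraries; the RluA-2 lines (red) stay at or near 0 beyond the first 1000 bases. Lower panel: log2 fold change, RluA-2 over w1118, of RluA-2 and the 22 tested genes within 50 kb, by their distance in kb, with bars for the standard error; 7 of the 22 passed the test (red).

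Among the genes beside the deletion, Grip75, which encodes a protein of the gamma-tubulin complex and starts 320 bases past the end of RluA-2, gave 11.5, 10.1, 8.21 and 9.59 IPM in w1118 and 3.78, 5.99, 5.51 and 5.93 in RluA-2. It fell by 0.88 on the log2 scale (SE 0.14, edgeR adjusted p = 0.00027), with no overlap. RluA-1 encodes the other RluA family synthase and lies 2724 bases from RluA-2. Its levels were 74.8 to 81.8 IPM in w1118 against 61.6 to 66.9 in RluA-2 (log2 fold change -0.27, SE 0.05, edgeR adjusted p = 0.0018). On the RluA-1 side, further from the deletion, the lysosomal alpha-mannosidase genes LManI and LManII rose by 0.67 and 0.48 on the log2 scale, and loh, which encodes a secreted matrix protein, rose by 1.19, with 2.58 to 3.18 IPM in w1118 against 6.03 to 7.07 in RluA-2. TBC1D16 fell by 0.32. Bug22, a gene of ciliary basal bodies, was called at a log2 fold change of 0.33 with overlapping genotypes, and its adjusted p was 0.107 without RluA-2 replicate 4 and 0.102 without w1118 replicate 2.

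In all, 7 of the 22 other genes tested within 50 kb of RluA-2 were called (31.8%), 4 higher and 3 lower. The corresponding share was 20.5% over the 9545 genes tested by span, 22.6% of 226 genes within 1 Mb and 23.1% of 824 genes within 5 Mb of the locus. By chromosome arm it was 18.7% on 2L, which carries RluA-2, 19.8% on 2R, 25.3% on 3L, 21.2% on 3R and 16.7% on X. Called genes were thus spread over all large arms, and the arm of the deletion did not hold the highest share.

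Other pseudouridine synthases were measured in the same libraries, apart from CG34140, which had fewer than 20 inserts in the files used and was not analysed here. Nop60B, the dyskerin homologue, gave 30.9, 25.7, 26.2 and 24.4 IPM in w1118 and 38.5, 41.0, 33.1 and 30.3 in RluA-2, and rose by 0.43 on the log2 scale (SE 0.09, edgeR adjusted p = 0.0040). RluA-2 replicate 4 lay just below w1118 replicate 1, so that the genotypes overlapped at this pair. Pus1, Pus7, Pus10, CG3045 and CG7849 had log2 fold changes from -0.05 to 0.10, each with an SE of 0.11 to 0.14, and none passed the test. All inserts of Pus10 lay in a stretch shared with another gene of the same strand, and its value is uncertain for that reason.

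Over the whole genome, 2117 of 10050 tested gene identifiers differed between the genotypes in the CMC libraries at an adjusted p under 0.05 (21.1%, edgeR quasi-likelihood test with Benjamini-Hochberg adjustment), 884 of them higher and 1233 lower in RluA-2. At an unadjusted p under 0.05 the number was 3196. Most of the differences were small, with a median log2 fold change of 0.39 among the higher and -0.46 among the lower genes. A change of more than 2-fold was found for 140 higher and 244 lower genes, and of more than 4-fold for 48 and 55. The 4 libraries of 1 genotype all lay above the 4 of the other for 2376 genes (23.6%), 1910 of which were called. Among the lower and higher calls the balance shifted with the scaling: 800 higher and 1338 lower genes were called with library size alone, and 961 and 1153 with DESeq2 size factors. On simulated counts of the same depth, 94 of 100 genes changed by 1 on the log2 scale and 68 of 100 changed by 0.5 were recovered. A further 13 genes without a planted change were also called.

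The deposited counts are listed by FlyBase identifier and few of these could be paired with a symbol. Named genes are therefore given from inserts summed over gene spans, of which 1952 of 9545 were called (20.5%), 840 higher (8.8%) and 1112 lower (11.7%), and 2192 did not overlap between the genotypes (23%). For 76 genes measured both ways the median absolute difference between the log2 fold changes was 0.0186. The difference was under 0.25 for 71 of the 76, and 66 lay on the same side of the threshold in both measures. Of these 66 only 14 were called in both measures, all in the same direction, and the rest were called in neither. The remaining genes of the 76 were called in a single measure, so a call by span did not always match a call by gene count.

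**Figure D2:**
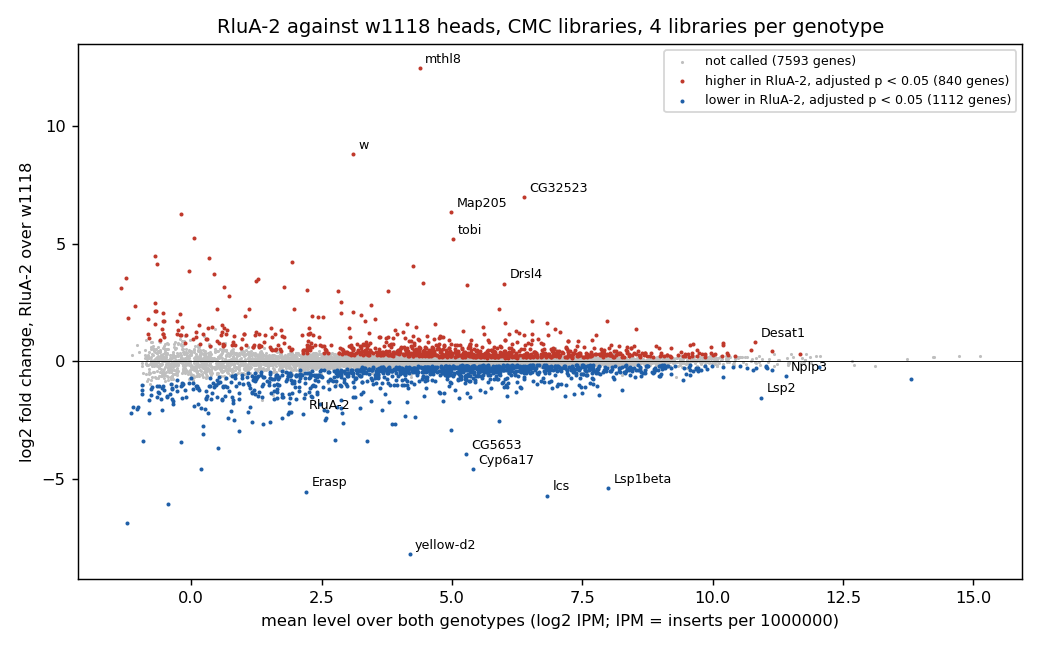
Log2 fold change, RluA-2 over w1118, against the mean level over both genotypes (log2 IPM) for the 9545 genes tested by span, 4 CMC libraries per genotype; red and blue points are the 840 genes called higher and the 1112 called lower. The largest changes, among them mthl8, w, yellow-d2 and Lsp1beta, stand far outside the band of small changes that holds most called genes.

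Each RNA sample also had a mock library, so the genotype difference could be set against that of the untreated aliquot. Of 10344 genes tested, 0 differed between CMC and mock aliquots in the RluA-2 over w1118 fold change (edgeR test of the interaction with the RNA sample as a block, 0% called), with 311 at an unadjusted p under 0.05. DESeq2 also called 0, with 42 at an unadjusted p under 0.05. The median absolute difference between aliquots was 0.0517 on the log2 scale against a median SE of 0.0799, and 90% of genes differed by less than 0.254. When 200 genes were given a difference of 1 on the log2 scale in simulated counts, the test recovered 172 and called 10 other genes. Smaller differences were not simulated, so the recovery of differences of the size seen in most genes is not known. The smallest p belonged to FBgn0013704, whose log2 fold change was 1.07 higher in the CMC aliquots (SE 0.21, edgeR unadjusted p = 5.6e-05, adjusted 0.575). In the opposite direction FBgn0082945 had the smallest p, with a difference of -0.94 (SE 0.23, edgeR unadjusted p = 0.00053, adjusted 1).

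The mock libraries alone gave 2409 called genes of 10161 (23.7%), 1127 higher and 1282 lower. The fold changes of both aliquots are given side by side for some genes with a paired symbol, chosen after their values were seen. These comparisons share their RNA samples and are not independent of each other. Treh, which encodes trehalase, fell by 0.53 in the CMC and by 0.56 in the mock libraries on the log2 scale. LanA, a laminin chain of the basement membrane, fell by 0.49 and 0.46. For pps, a gene for a partner of the splicing protein Snf, the rise was 0.76 and 0.72. Ts, which encodes thymidylate synthase, fell by 1.57 and 1.46, and Swim, which encodes a secreted binding partner of Wingless, by 0.34 and 0.34. The largest gap among these was in dyw, with -1.30 in the CMC and -1.06 in the mock libraries (interaction -0.25, SE 0.11, edgeR adjusted p = 1.0). Some other paired genes differed more between aliquots, though none passed the interaction test. Spn77Bc had -1.58 in the CMC and -0.88 in the mock libraries, and tRNA:Glu-TTC-1-6 had -0.84 and -0.33. Both were called in the CMC libraries alone, as was snRNA:U2:34ABc (-1.59 and -3.76). The smallest interaction p values of paired genes were in tRNA:Thr-AGT-1-6 (-1.33, SE 0.45, edgeR unadjusted p = 0.0079) and tRNA:Val-CAC-1-1 (-1.38, SE 0.53, edgeR unadjusted p = 0.018).

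The largest rises were led by mthl8 (3L:22428-26308), a receptor gene of the Methuselah-like family. It had 0 inserts in each w1118 library and 37.4, 43.5, 38.5 and 46.9 IPM in RluA-2. Against a floor of 3 inserts per w1118 library this is at least 226-fold higher (edgeR adjusted p = 1.9e-11). The gene w (X:2790599-2796466) encodes a transporter subunit that carries pigment precursors in the eye. It had 2 inserts over all 4 w1118 libraries, both in replicate 2, and 15.9, 19.0, 15.3 and 18 IPM in RluA-2, 1212 inserts in all. The ratio of the pooled counts was 562, with a 95% counting interval of 155 to 4646, which covers counting error only. Neither gene thus had more than a trace of signal in the control libraries.

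CG32523 had 1.27, 1.36, 0.772 and 1.66 IPM in w1118 and 162, 149, 160 and 188 in RluA-2, a log2 fold change of 7.0 (SE 0.13, edgeR adjusted p = 4.6e-14). Map205 (3R:32055279-32068441), which encodes a microtubule-associated protein, had 0.764, 1.09, 0.561 and 0.574 in w1118 and 70.0, 60.1, 61.1 and 58.3 in RluA-2 (6.36, SE 0.13). In tobi (3R:25344761-25346921), an alpha-glucosidase gene that responds to insulin signalling, the levels were 1.40 to 1.95 in w1118 against 58.1 to 69.0 in RluA-2 (5.2, SE 0.10). For all 3 genes the RluA-2 libraries lay closely together and far above the controls. IFT54, a gene of intraflagellar transport, had 1.58 to 2.61 IPM in w1118 against 34.2 to 37.7 in RluA-2 (4.06, SE 0.11), and CG3397 had 3.56 to 4.28 against 35.6 to 45.7 (3.32, SE 0.10). CG8757 (4.24), CG15553 (3.17) and GILT3 (3.05), a thiol reductase gene, rose from levels under 1.3 IPM in every w1118 library to levels of 5.26 to 9.98 in RluA-2. Drsl4, a drosomycin-like gene, rose by 3.30 on the log2 scale, with 9.09 to 13.5 IPM in w1118 against 95.4 to 133 in RluA-2. CG4757 rose by 3.27, and its RluA-2 levels were less even, with 117 in replicate 1 against 45.7 to 63.7 in the others.

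At the other end, yellow-d2 (2R:23381197-23382591), of the yellow family, had 31.1, 37.3, 38.9 and 37.8 IPM in w1118 and 0.0591, 0.162, 0.0580 and 0.165 in RluA-2, a log2 fold change of -8.23 (SE 0.19, edgeR adjusted p = 2.1e-13). The next largest fall was in lcs, with 216, 195, 213 and 265 in w1118 and 16.2, 0.162, 0.348 and 0.385 in RluA-2 (-5.73, SE 0.63, edgeR adjusted p = 7.8e-06). Here RluA-2 replicate 1 stood far above the other 3 libraries of its genotype, and without it the log2 fold change was -9.51. Erasp fell by 5.56 on the log2 scale, with 7.86 to 10.2 IPM in w1118 against 0.108 to 0.275 in RluA-2. Lsp1beta (2L:898500-901316) encodes a subunit of a larval serum protein, a storage hexamer that the larval fat body secretes. It had 572, 584, 399 and 446 IPM in w1118 and 9.21, 9.01, 12.1 and 16.2 in RluA-2 (-5.41, SE 0.18, edgeR adjusted p = 1.4e-11).

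Cyp6a17 (2R:14873953-14875739), a cytochrome P450 gene, had 85.6, 81.2, 79.8 and 79.3 IPM in w1118 and 4.31, 2.97, 2.38 and 3.68 in RluA-2 (log2 fold change -4.60, SE 0.11, edgeR adjusted p = 2.4e-13). Its neighbour Cyp6a23 (2R:14875829-14877654), named after its values were seen, moved the other way, with 20.5 to 22.3 in w1118 against 48.7 to 54.7 in RluA-2 (1.29, SE 0.06). These paralogs are similar in sequence, and how reads were split between them was not tested. CG5653 (-3.96), the cuticle protein gene Cpr92A (-3.39), CG33460 (-3.36), CG14456 (-2.92), CG3699 (-2.67) and the ninjurin gene NijC (-2.64) were lower too, with every RluA-2 library below every w1118 library. Def, which encodes the antibacterial peptide Defensin, had 19.8, 25.3, 26.6 and 31.7 IPM in w1118 and 6.85, 1.62, 2.49 and 5.27 in RluA-2 (-2.67, SE 0.27). The RluA-2 levels of Def were more scattered than those of the other genes in this group, yet none reached the control range.

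**Figure D3:**
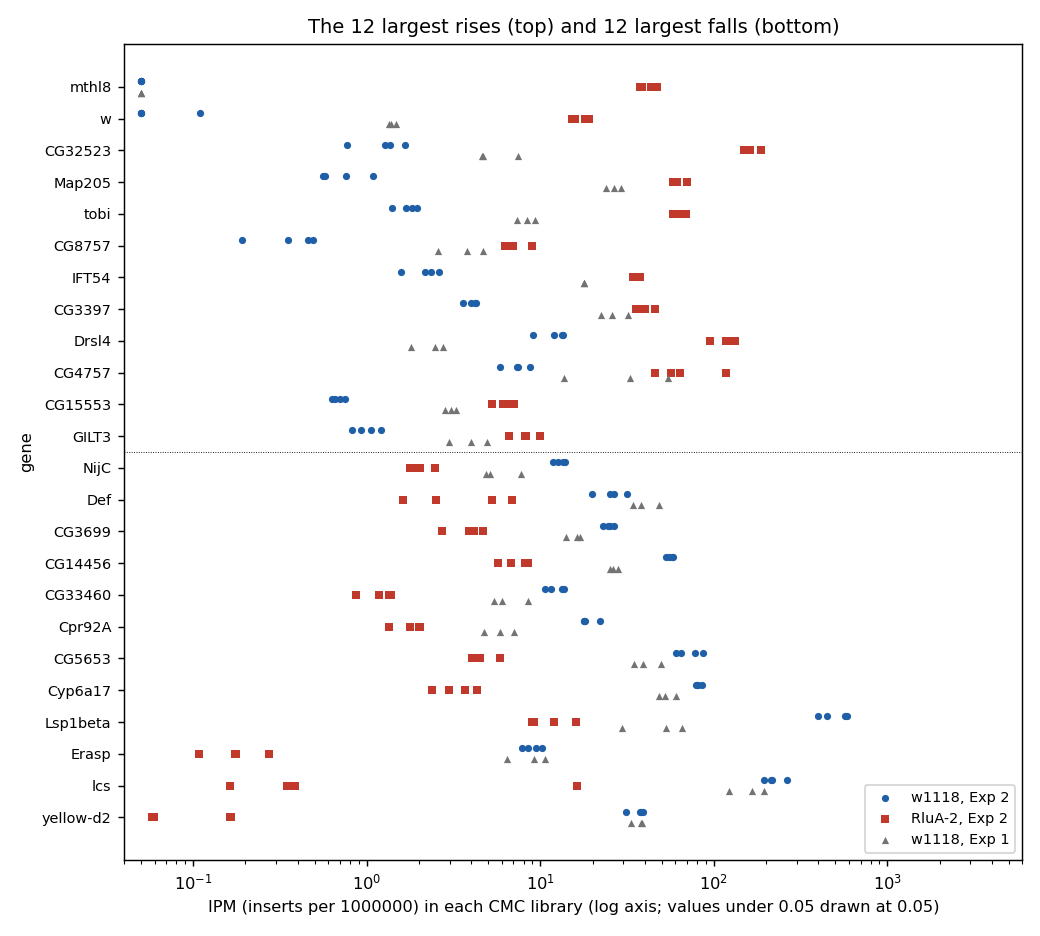
IPM (log axis, values under 0.05 drawn at 0.05) of the 12 largest rises and the 12 largest falls among called genes that reached 5 IPM in 1 genotype, in each CMC library: w1118 of Exp 2 (blue circles), RluA-2 of Exp 2 (red squares) and w1118 of Exp 1 (grey triangles). No red square falls within the blue circles of its gene, and for 18 of the 24 genes all 3 grey triangles lie between the genotypes.

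Exp 1 held 3 further CMC libraries of w1118 heads, prepared in another experiment, so that experiment and preparation cannot be told apart in their levels. They were set beside the 24 genes above as a description. All 3 lay between the genotypes of Exp 2 for 18 of the 24 genes, at or beyond the w1118 side for 4 (mthl8, Drsl4, yellow-d2 and Def), and across these ranges for CG4757 and Erasp. For none of the 24 did all 3 lie on the RluA-2 side. The distance from the Exp 2 controls varied by gene. Map205 had 23.8, 26.7 and 29.0 IPM in the Exp 1 libraries, where the Exp 2 controls had at most 1.09. Lsp1beta had 29.7, 52.7 and 65.8, where the Exp 2 controls had at least 399. In w the Exp 1 levels were 1.38, 1.35 and 1.48, above the 0 to 0.109 of the Exp 2 controls and below all RluA-2 libraries. For yellow-d2 they were 37.9, 33.4 and 38.4, within the control range. Of the 1480 called genes that did not overlap and reached 5 IPM in 1 genotype, the Exp 1 libraries lay at or beyond the w1118 range for 429 (29.0%), at or beyond the RluA-2 range for 418 (28.2%), between the genotypes for 111 (7.5%) and across these ranges for 522 (35.3%).

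Among abundant transcripts the changes were smaller. Desat1, which encodes an acyl-CoA desaturase of lipid and pheromone synthesis, had 1429, 1182, 1197 and 1439 IPM in w1118 and 2208, 2358, 2371 and 2154 in RluA-2 (log2 fold change 0.81, SE 0.08, edgeR adjusted p = 2.6e-06). The genotypes were well separated. CG4000 rose by 0.45 and CG7203 by 0.48, the latter with overlap at w1118 replicate 3. On the lower side, Nplp3, a neuropeptide-like precursor gene, had 3033, 3220, 3606 and 3318 in w1118 and 2226, 2045, 2040 and 2104 in RluA-2 (-0.64, SE 0.07, edgeR adjusted p = 9.4e-06). Pdh, a dehydrogenase of retinoid metabolism in the eye, fell by 0.37, and the odorant-binding protein gene Obp44a by 0.30. The signal recognition particle RNA 7SLRNA:CR32864 had 13658 to 23034 IPM in w1118 against 9525 to 12269 in RluA-2 (-0.74, SE 0.13). In the deposited gene counts the same gene had only 27.4 to 37.6 counts per 1000000 in w1118 against 14.9 to 37.2 in RluA-2, with overlap, and was not called (-0.48, SE 0.23, edgeR adjusted p = 0.18). Another 7SL gene lies close by, how reads were split between these copies was not tested, and the value by span is uncertain. The calls of apolpp, RpL41 and retinin, at 0.32, 0.25 and -0.26, kept their direction but were lost in 5, 3 and 4 of the 8 fits that left out a library, with adjusted p values of up to 0.0932, 0.0774 and 0.0798, reached without w1118 replicate 3 for apolpp and retinin and without w1118 replicates 1 or 3 for RpL41.

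Gene lists were then read by role, each beside the 20.5% called and the median log2 fold change of 0.0042 over all 9545 genes. Core proteins of the snoRNA particles and nucleolar factors of ribosome assembly were listed with Max and Mnt, transcription factors of the Myc network. Of these, 8 of 20 tested members were higher and 0 lower, with a median of 0.20, and 1 was lower without w1118 replicate 4. Nop5 and Myc had fewer than 20 inserts in the files used and were not analysed here. That number does not show a low level, since the paper reports Myc as higher in its mock libraries of RluA-2. Nop10 had 4.01, 4.73, 4.77 and 4.42 IPM in w1118 and 7.15, 7.39, 6.27 and 6.81 in RluA-2 (log2 fold change 0.63, SE 0.11, edgeR adjusted p = 0.00049). Gar1 had 10.8 to 13.3 in w1118 against 13.5 to 17.7 in RluA-2 (0.45, SE 0.10). NHP2, which like Nop60B belongs to the H/ACA core, had 12.6 to 18 in w1118 against 15.2 to 17.3 in RluA-2 and was not called (0.12, SE 0.10, edgeR adjusted p = 0.49). Of the 4 core proteins of the H/ACA particle, 3 thus rose. Of the box C/D particle, Nop56 (0.39, SE 0.06) and Fib, the methyltransferase fibrillarin (0.38, SE 0.09), were also higher, without overlap, as were the ribosome assembly genes ppan (0.41) and bys (0.30). The remaining call was Max (0.24, SE 0.08), with overlap and an uncertain value, since over 5% of its inserts lay in another span of the strand.

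Cytoplasmic ribosomal protein genes had 23 of 82 members higher and 0 lower (28% called), with a median of 0.18. Of the 82, 79 had a positive log2 fold change, against 4879 of all 9545 genes tested. The lowest member stood at -0.71 and was not called. RpL23A had 567 to 609 IPM in w1118 against 832 to 1098 in RluA-2 (0.69, SE 0.09, edgeR adjusted p = 2.8e-05). RpS9 had 736 to 875 in w1118 against 1081 to 1280 in RluA-2 (0.63, SE 0.07). The other 21 called members rose by 0.19 to 0.35. The number of calls in this list depended on single libraries: it was 14 without w1118 replicate 1 and 49 without w1118 replicate 4. It was 42 with the replicate number as a block and 38 with DESeq2, with 0 lower in each. Mitochondrial ribosomal protein genes had 5 of 71 higher and 1 lower (median 0.06), led by mRpL39 (0.67, SE 0.07). The higher count was 2 without w1118 replicate 1 and 3 without w1118 replicates 2 or 3 or RluA-2 replicates 2 or 4, and the lower count was 0 to 2 when a library was left out. Translation factors had 9 of 39 higher and 2 lower (28.2% called, median 0.10). Of the 9, 7 were subunits of eIF3, the scaffold of the initiation complex, such as eIF3b (0.34, SE 0.06) and eIF3c (0.30, SE 0.06). The lower calls were eIF2beta (-0.23, SE 0.06) and eIF4E1 (-0.16, SE 0.06), and the latter was lost with DESeq2 size factors, with no filter, with the replicate block and in 7 of 8 fits that left out a library (adjusted p of 0.0521 to 0.173). The share of called mitochondrial ribosomal protein genes, 8.45%, was below that over all genes.

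Secreted proteins of the fat body had 7 of 13 members lower and 1 higher, apolpp, with a median of -0.41. The genes for larval storage proteins and their partners fell, and the yolk protein genes were not called. Lsp2, another larval serum protein gene, had 2840, 2776, 3055 and 3026 IPM in w1118 and 790, 886, 989 and 1299 in RluA-2 (log2 fold change -1.55, SE 0.12, edgeR adjusted p = 2.2e-07). Fbp1, which encodes the larval receptor for these storage proteins, had 11.5, 8.49, 14.2 and 6.26 in w1118 and 3.90, 0.647, 0.464 and 2.36 in RluA-2 (-2.44, SE 0.40), and -3.09 without RluA-2 replicate 1. Lsp1alpha (-2.40), Lsp1gamma (-2.11) and Fbp2 (-1.95) were lower without overlap, at levels under 5 IPM. The yolk protein genes Yp1, Yp2 and Yp3, among the most counted of all, had log2 fold changes of 0.22, 0.18 and 0.17 (SE 0.08 to 0.10, edgeR adjusted p = 0.15, 0.16 and 0.24). With DESeq2, Yp1 and Yp2 passed the threshold as higher (adjusted p = 0.0468 and 0.0346). In RluA-2 replicate 3, Yp1 reached 34238 and Yp3 23780 IPM, above every other library.

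Of the opsin and phototransduction genes, 6 of 27 were lower and 0 higher (median -0.07). The share called, 22.2%, was near the 20.5% over all genes. Rh5, the blue opsin of inner photoreceptors, had 243, 213, 249 and 263 IPM in w1118 and 115, 118, 113 and 106 in RluA-2 (log2 fold change -1.08, SE 0.07, edgeR adjusted p = 2.2e-08). The ultraviolet opsins Rh3 and Rh4 fell by 0.47 and 0.37. ninaE, the opsin of the outer photoreceptors, stood at 12195 to 13938 in w1118 against 12724 to 15402 in RluA-2 (0.11, SE 0.08, edgeR adjusted p = 0.44), and the green opsin Rh6 also did not pass the test (0.08, SE 0.07). Thus 3 of the opsins of inner photoreceptors were lower, by unequal amounts. ninaD, a scavenger receptor for carotenoid uptake, had 67.8 to 79.8 IPM in w1118 against 41.0 to 47.9 in RluA-2 (-0.76, SE 0.07).

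Eye pigment genes had the highest share of calls of the 21 lists, 9 of 12 (75%), with 4 higher and 5 lower. Apart from w, whose values are given above, the changes were below 2-fold. The pteridine genes se, pr and Pu fell by 0.83, 0.50 and 0.46, and ry, which encodes xanthine dehydrogenase, by 0.50. se, the synthase that leads to drosopterin, had 114 to 123 IPM in w1118 against 63.2 to 77.7 in RluA-2. bw, the partner of w in pteridine transport, fell by 0.34. Hn, which encodes phenylalanine hydroxylase, and the ommochrome pathway genes kar and cd rose by 0.43, 0.43 and 0.31.

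The immune peptide list was split as well, with 7 of 26 members higher and 4 lower (median 0.09). BomS6, a Bomanin gene, had 37.7, 26.4, 26.3 and 36.8 IPM in w1118 and 95.1, 97.5, 102 and 93.4 in RluA-2 (log2 fold change 1.62, SE 0.10, edgeR adjusted p = 2.5e-08). Drsl5 rose by 1.64 (SE 0.09), with 47.8 to 67.4 in w1118 against 164 to 184 in RluA-2. BomT3 rose by 0.43 (SE 0.07). In these 3 genes the RluA-2 libraries were even and above every control. AttD, an attacin gene, had 2.16, 2.34, 1.61 and 4.48 in w1118 and 0.413, 0.108, 0.116 and 0.165 in RluA-2 (-3.70, SE 0.44), and -4.29 without RluA-2 replicate 1. CecA1 (-2.42) and AttB (-1.37) were lower too. Other inducible members varied within each genotype: DptA, a diptericin gene, had 14.4, 2.94, 6.18 and 26.7 in w1118 and 44.5, 17.0, 0.696 and 6.21 in RluA-2, and AttC had 27.4, 18.3, 25.5 and 50.1 against 89.4, 29.0, 5.98 and 17.0. RluA-2 replicate 1 was the highest library for both. Without it, 6 members were called higher and 9 lower, with a median of -0.59, and with DESeq2 7 higher and 2 lower.

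Neuropeptide precursor genes had 8 of 27 members lower and 0 higher (29.6% called, median -0.07). Ilp3 and Ilp5 encode insulin-like peptides of the brain. Ilp3 had 47.0, 49.6, 46.7 and 48.3 IPM in w1118 and 25.7, 29.6, 27.1 and 30.4 in RluA-2 (log2 fold change -0.75, SE 0.06, edgeR adjusted p = 4.3e-07). Ilp5 had 27.9 to 32.4 in w1118 against 15.4 to 18 in RluA-2 (-0.80, SE 0.08). The levels in RluA-2 were clearly separate from the controls for both. Besides Nplp3, the others that fell were Lk (-0.52), the diuretic hormone genes Dh31 (-0.43) and Dh44 (-0.35), SIFa (-0.42) and Nplp4 (-0.31). Ilp2 had fewer than 20 inserts in the files used and was not analysed here, and its level is not known from them. With DESeq2, 1 member was called higher. Without w1118 replicate 4, 3 members were called higher and 7 lower.

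Odorant-binding protein genes had 10 of 27 lower and 6 higher (59.3% called, median -0.30). Obp99b had 108, 98.5, 97.2 and 104 IPM in w1118 and 18.4, 17.4, 16.1 and 16.6 in RluA-2 (log2 fold change -2.56, SE 0.06, edgeR adjusted p = 3.5e-13). Obp99a fell by 1.34, and Obp99c rose by 0.29. Obp56f fell by 1.51 from 2.42 to 2.81 IPM, whereas Obp56g (0.51) and Obp56h (0.71) rose. Members of the same genomic cluster thus moved in opposite directions.

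Genes of detoxification and of the cuticle had high shares of calls, mostly lower. Cytochrome P450 genes had 27 of 73 lower and 10 higher (50.7% called, median -0.12). Beside Cyp6a17, Cyp304a1 had 1.40 to 2.75 IPM in w1118 against 0.0591 to 0.432 in RluA-2 (log2 fold change -3.10, SE 0.38). Cyp4d8 had 1.90 to 2.42 in w1118 against 11.3 to 13.3 in RluA-2 (2.51, SE 0.11, edgeR adjusted p = 5.3e-10). Cyp4d21 rose by 1.93 (SE 0.38) with 5.47 in w1118 replicate 1 against 0.804 to 1.20 in the other controls, and by 2.99 without that library. Glutathione S-transferase and UDP-glycosyltransferase genes, whose products conjugate foreign compounds, had 18 of 47 lower and 4 higher (median -0.11). Ugt37A3 had 26.3 to 31.6 IPM in w1118 against 5.08 to 6.26 in RluA-2 (-2.33, SE 0.09), and Ugt35B1 rose by 0.89 (SE 0.09).

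Cuticle protein genes had 23 of 41 lower and 3 higher (63.4% called, median -0.40). Cpr47Ea had 16.5, 14.9, 17.1 and 18.4 IPM in w1118 and 5.61, 5.83, 4.29 and 5.05 in RluA-2 (log2 fold change -1.67, SE 0.11, edgeR adjusted p = 2.3e-08). The members that rose were Ccp84Ab (1.17, SE 0.11), its neighbour Ccp84Aa (1.04) and Cpr50Ca, at about 1 IPM or less (1.60, SE 0.33). The Ccp84A genes are close copies of each other. Genes of amine synthesis and cuticle tanning had 10 of 22 lower and 1 higher (median -0.18). Among these were yellow-f (-0.64, SE 0.11), yellow-e (-0.64), and stw, a laccase gene (-0.47). The genes b, which supplies beta-alanine for tanning, and speck, an N-acetyltransferase gene, fell by 0.21 and 0.30.

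**Figure D4:**
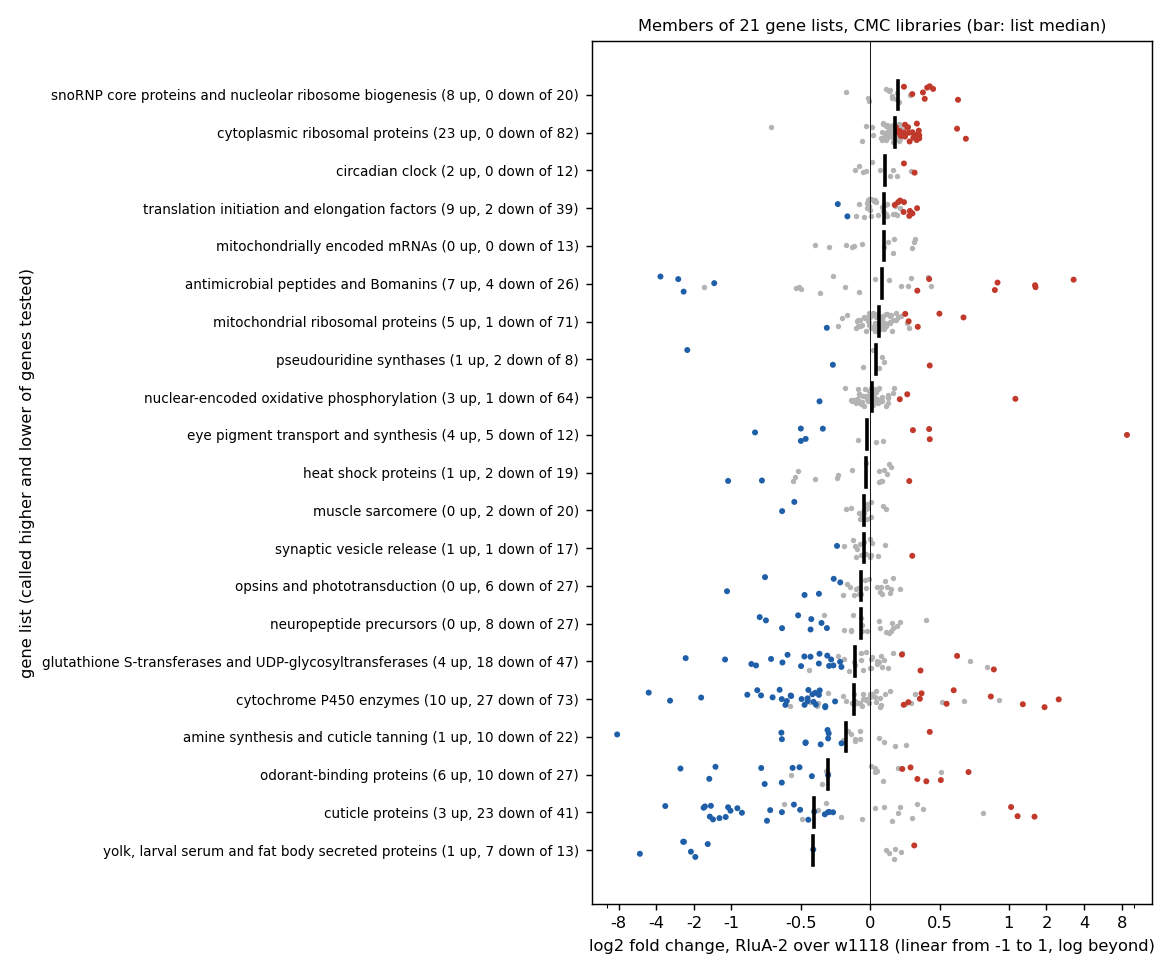
Log2 fold change, RluA-2 over w1118, of every tested member of 21 gene lists (linear from -1 to 1, log scale beyond); red and blue points were called higher and lower, grey points were not called, and the black bar is the list median. The medians of the snoRNP and ribosomal protein lists lie to the right of 0. Those of the cuticle, odorant-binding and fat body secreted protein lists lie to the left, with medians from 0.20 to -0.41. Each of these lists has members on both sides of 0.

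Other lists held few calls. Nuclear genes of oxidative phosphorylation had 3 of 64 higher and 1 lower (6.25% called), and RFeSP, the Rieske protein gene of complex III, fell by 0.37 (SE 0.09). Of the higher members ND-B14.7 rose by 0.21 and SdhD by 0.27. The SdhD call was lost without w1118 replicates 1 or 2 or RluA-2 replicate 4 (edgeR adjusted p of 0.0541 to 0.0847). ND-MNLL (1.13, SE 0.27) had levels under 2.7 IPM in every library. Its value is uncertain because all its inserts lay in a stretch shared with another gene of the same strand. Mitochondrially encoded mRNAs had 0 of 13 called by edgeR, with 2 at an unadjusted p under 0.05, and 0 by DESeq2, but 6 higher without w1118 replicate 2 and 1 lower without w1118 replicate 4. Genes of synaptic vesicle release had 1 of 17 higher (Rph, rabphilin, 0.30) and 1 lower (Syn, synapsin, -0.24). Muscle sarcomere genes had 2 of 20 lower, Act79B (-0.55, SE 0.06) and TpnC73F (-0.63, SE 0.12). Among heat shock genes Hsp68 had 37.3, 45.2, 37.2 and 46.3 IPM in w1118 and 18.2, 20.8, 20.6 and 19.3 in RluA-2 (-1.06, SE 0.09, edgeR adjusted p = 3.3e-07). In all, 1 of 19 heat shock members was higher and 2 lower, but 0 higher and 8 lower without RluA-2 replicate 2, and 0 higher and 1 lower without RluA-2 replicate 4. The call of Hsp23 as higher was also lost without w1118 replicates 1 or 3 (edgeR adjusted p = 0.0964 and 0.0684). That of Hsp70Bb as lower was lost without RluA-2 replicates 3 or 4 (edgeR adjusted p = 0.0554 and 0.0559).

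Clock genes had 2 of 12 called, cyc (0.32, SE 0.07) and cwo (0.24, SE 0.08), and the latter was not called without w1118 replicates 2, 3 or 4 or RluA-2 replicates 1, 2 or 3 (edgeR adjusted p of up to 0.125). The cycling transcripts varied widely within each genotype. tim had 365, 82.8, 198 and 258 IPM in w1118 and 275, 331, 145 and 98.1 in RluA-2. per had 124, 34.5, 79.2 and 95.3 against 122, 140, 72.6 and 43.3. vri, which encodes a repressor in the same loop, was likewise lowest in w1118 replicate 2 and RluA-2 replicate 4. None of these 3 genes passed the test, and the genotypes overlapped in each.

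Cell type markers were read in the same way. Neuron markers had 0 of 6 called by edgeR, with 0 at an unadjusted p under 0.05, and 0 by DESeq2, and their summed levels ran from 2621 to 3134 IPM in w1118 and from 2787 to 3061 in RluA-2. Muscle markers likewise had 0 of 6 called by edgeR, 0 at an unadjusted p under 0.05 and 0 by DESeq2, with sums of 13208 to 13882 and 12408 to 13985. Photoreceptor markers had 3 of 8 lower, all of them opsins, with summed levels of 26986 to 30232 and 26341 to 29187. Glia markers had 3 of 6 lower, wrapper, Gs2 and moody (-0.30, -0.25 and -0.21), and 1 higher, repo (0.17, SE 0.06), whose call was lost with DESeq2, limma-voom, library size alone, the replicate block and 6 of 8 left-out libraries (adjusted p of 0.0521 to 0.126). Their summed level was 2393 to 2565 in w1118 against 2217 to 2296 in RluA-2, without overlap. Fat body markers had 1 of 6 higher, apolpp, and 2 lower, Lsp2 and Fbp1, with sums of 63460 to 71953 and 67556 to 84764, and hemocyte markers had 2 of 5 higher, srp (0.44) and NimC1 (0.69), with sums of 395 to 419 and 391 to 421. Of the 7 markers each of ovary and testis none was tested, and 5 and 7 of them had fewer than 20 inserts in the files used. The glia marker alrm also had fewer than 20 inserts and the neuron marker Cadn was not matched to a gene, so neither was tested. Low numbers of inserts in these files do not show that a tissue was absent. The part that a shift in cell types may have in the results above was not tested.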

How the data were processed

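Heads of both genotypes were profiled by Psi-seq, sequenced on a NextSeq 550 as paired reads of 75 bases. The authors trimmed reads with Trimmomatic 0.33, removed rRNA and spike-in reads with Bowtie2, aligned the rest with STAR 2.6.1a to release 6 of the fly genome and made the deposited gene counts, which are raw, with featureCounts 2.0.0 from uniquely placed, concordant inserts on the sense strand of exons. The deposited termination files give a value per base and strand. From each value 1 was subtracted here, and the result was taken as the count of inserts that ended there. The lowest count after this step was 1 in every CMC library. Where rows repeated a base and strand, only the highest was kept, and 1446 to 2736 rows per CMC library were repeats. The members of this comparison and the gene lists were chosen with earlier results of these data known.

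Gene counts were tested with edgeR 4.0.16 (TMM, filterByExpr, quasi-likelihood test, genotype as the factor) in R 4.3.3, with Benjamini-Hochberg adjustment over all genes tested and calls at an adjusted p under 0.05. The interaction test used 16 libraries with the RNA sample as a block. DESeq2 1.42.0, limma 3.58.1 (voom), other scalings, no filter, all 16 libraries in 1 fit, the replicate number as a block and leaving out each library were alternatives. Fits were tested on simulated data. Library measures were compared by exact permutation tests, two-sided, over 5 measures.

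Only 199 of 17101 identifiers could be paired with 1 symbol, so named genes come from terminations of the CMC libraries summed over RefSeq gene spans and tested in the same way, a step chosen after seeing the data. The reference table has no strand: each gene took the strand with more inserts, 503 antisense RNA genes were left out, a base shared by spans went to the shortest span, and 11223 genes with at least 20 inserts were kept. For 1119 of these, over 5% of inserts lay in another span of the strand, and their values are uncertain, as are those of close paralogs. These spans include introns. The range of total counts per library is given above for each genotype. Inserts in gene spans, which divide each IPM, numbered 14249627 to 18380457 per w1118 library and 16933643 to 18538346 per RluA-2 library of Exp 2. In each of these 8 libraries they were fewer than the gene counts, although the spans include introns. Whether the termination files hold every insert was not tested, so fewer than 20 inserts does not show a low level. The number of inserts sets the precision of low genes.

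Genes named were the deleted gene, pseudouridine synthases, called genes within 50 kb, the 12 largest rises and falls without overlap at 5 IPM or more, the 5 most counted called genes each way, the 2 largest called members of each list each way, and the 5 smallest interaction p values each way among paired symbols. Of the interaction genes among paired symbols, only some are given with their interaction values. Further list members, the paired genes set beside the mock libraries, the 2 leading interaction identifiers and Cyp6a23 were added after their values were seen. Cyp1, Cyp40, RpL24-like and RpLP0-like, which match a list by symbol but belong to other families, were taken off the lists after their values were seen. Columns of Exp 1 other than w1118 CMC were not used.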

Additional observations from a re-analysis of the deposited data

Results flagged for a closer look

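Among 278 groups of 4 libraries, 1 for each named gene and genotype, 19 had a library that stood apart from the other 3 by Dixon's test, and chance gives about 1 in 20. Over all 9544 genes the share was 5.18% in w1118 and 4.81% in RluA-2. Values below are in IPM, the inserts of a gene per 1000000 inserts in gene spans.

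RluA-2 replicate 1 stood apart in lcs (16.2 against 0.162 to 0.385) and mRpL44 (18.5 against 20.8 to 21.1). RluA-2 replicate 2 stood apart in Hsp70Bb (4.53 against 1.98 to 2.36) and Treh (352 against 331 to 333). RluA-2 replicate 3 did so in wrapper (36.0), Yp3 (23780 against 18923 to 19032), pps (144 against 125 to 127) and, as the lowest, Dh31 (24.9). RluA-2 replicate 4 was apart in se (77.7 against 63.2 to 64.9) and Ugt35B1 (142 against 112 to 116).

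Of the controls, w1118 replicate 1 stood apart in eIF3c (274 against 259 to 261), se (114 against 123), pr (201 against 195) and Cyp4d21 (5.47 against 0.804 to 1.20). w1118 replicate 2 was apart in CG45081 (6.69), CG8516 (36.0, the lowest) and Dh31 (39.7 against 35.1 to 35.7), and w1118 replicate 3 in Cpr92A (22.2 against 17.7 to 18.2) and eIF4E1 (207 against 225 to 227).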

How the results depend on the processing

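The number of genes called in the CMC libraries was 2117, and 1737 to 2498 over the alternatives, with 1737 to 2016 when a library was left out and 1952 by gene span. All 2117 kept their direction in every fit on gene counts. These fits, like those of named genes below, reuse the libraries that gave the calls, so a change of direction was unlikely. The mock count of 2409 ranged from 2021 to 2319. The interaction count of 0 became 39 without the filter on low counts, 2 of them genes that the filter removes, and 0 to 9 with an RNA sample left out (9 without w1118 replicate 4, 2 without w1118 replicate 1 and 1 without w1118 replicate 2). The cause was not tested. Without the RNA sample as a block it was 0, with 135 genes at an unadjusted p under 0.05.

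Replicate numbers did not pair w1118 with RluA-2 libraries (correlation of deviations from the group mean -0.042 to 0.039), while CMC and mock aliquots of the same RNA deviated together (0.27 to 0.53). With the replicate block 2114 genes were called.

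RluA-2 differed by -5.84 IPM, and by -5.40 to -6.34 without 1 library, where the exact permutation test cannot go below p = 0.0571. Of 119 called named genes, 13 lost their call under at least 1 alternative, 6 of these also by a change other than a left-out library, and 0 of the 119 changed sign. Among all 139 named genes, 7 changed sign under an alternative, none of them called: without RluA-2 replicate 1, DptA went from 0.44 to -0.65 and AttC from 0.22 to -0.80. Low genes are limited by depth: at 1 IPM a library holds fewer than 20 inserts.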
